A study of Mus musculus with 8 samples.

Results

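The beta-chain variable segments TRBV23, TRBV24, TRBV26, TRBV29 and TRBV30 were followed through single-cell T cell receptor libraries of injured mouse brain. They are the 5 downstream segments of the main V array of the beta locus for which chains were sought. Members were all productive TRB chains called with one of these V genes. There were 160 such chains of 2967 beta chains, in 159 cells of 2920 cells with a beta chain, and in 138 clonotypes of 1649. TRBV26 and TRBV29 held nearly all of them: 60 cells carried TRBV26, 85 carried TRBV29, 11 carried TRBV23 and 3 carried TRBV30. No chain was called TRBV24.

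All libraries came from male C57BL/6 (B6) mice given a traumatic brain injury (TBI) by controlled cortical impact, so injury is common to every group. Mice were either young, 13 to 15 weeks old at injury, or aged, 80 to 82 weeks old, and received an antibody against CD49d (aCD49d), the alpha 4 integrin chain that T cells use to enter tissue, or an isotype control antibody, repeated every 2 weeks. CD45+ cells were sorted from brain 2 months after injury, and each library pooled cells of 2 mice, giving 1 library each of YTBI_Isotype, YTBI_aCD49d, ATBI_Isotype and ATBI_aCD49d (Y young, A aged). Aged and young mice came from different suppliers, so age and source cannot be told apart, and the mice within a pool cannot be separated. With 1 library per group the spread within a group could not be measured, and no test between groups was run. Shares are given with exact (Clopper-Pearson) 95% intervals and differences with Newcombe intervals built from them, and both cover counting error only. Cells of 1 clone are not independent, which makes intervals on cells too narrow.

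The libraries held 252, 562, 1004 and 1102 cells with a beta chain (YTBI_Isotype, YTBI_aCD49d, ATBI_Isotype and ATBI_aCD49d), and the median beta chain rested on 7 to 11 unique molecular identifiers (UMIs). ATBI_Isotype was the shallowest by this measure, and 66.9% of its beta-chain cells also had an alpha chain, against 77.8% to 83.1% in the other libraries. A single cell barcode was shared between libraries (ATBI_Isotype and ATBI_aCD49d). It belonged to a cell with a member chain in 1 of the 2 libraries. No rearrangement of a member segment was found in more than 1 library, and of all 1678 rearrangements only 1, of another segment, was shared between libraries.

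A beta chain is assembled in the thymus by joining a V, a D and a J segment of the Trb locus, and the bases trimmed and added at the joints make the third complementarity-determining region (CDR3), the part of the chain that mostly contacts the peptide. D and J segments lie in a pair of clusters, each with its own constant gene, and TRBD1 with the TRBJ1 cluster and TRBC1 comes before TRBD2 with TRBJ2 and TRBC2. All cells descended from 1 rearrangement share its sequence, so a clonotype (cells with the same chains) marks a clone. TRBV29, long called Vβ7, is among the few beta segments used by invariant natural killer T (iNKT) cells, which carry a fixed TRAV11/TRAJ18 alpha chain and recognise lipids on CD1d. TRBV26 (Vβ3), TRBV23 (Vβ20) and TRBV30 (Vβ18) are used by conventional alpha beta T cells.

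On GRCm38 (mm10) the members lie on the plus strand of chromosome 6, between 316.7 and 251.2 kb upstream of Trbd1 in the GENCODE vM21 annotation. Trbv23 spans chr6:41216073-41216526, Trbv24 chr6:41218091-41218557, Trbv26 chr6:41227505-41227993, Trbv29 chr6:41271394-41271881 and Trbv30 chr6:41281376-41281990. Each has a leader exon and a V exon. TRBV23, TRBV24 and TRBV26 form a related group, with V exons 73.2% to 74.8% identical to one another, while TRBV29 and TRBV30 were 49.4% to 56.0% identical to the rest and to each other. The end of each V exon is shown because it supplies the first bases of the CDR3. The codon of the conserved cysteine is in capitals for TRBV23, TRBV26, TRBV29 and TRBV30, and the in-frame stop codon is in capitals for TRBV24.
TRBV23: gcactgtacttgTGCtccagcagtcaatc
TRBV24: gcactgTAGctctgtgccagcagtctgta
TRBV26: gcactgtacctcTGTgccagcagtctgtc
TRBV29: tctgtgtacttcTGTgctagcagtttatc
TRBV30: agtatctatttcTGTagttctagaga

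TRBV24 carried 1 in-frame stop codon in this C57BL/6 reference, a TAG at chr6:41218535-41218537, starting 6 bases before the cysteine codon. GENCODE classes it as a pseudogene and RefSeq as a gene. The deposited tables hold productive chains only, so a chain that kept this codon would not be listed, and whether TRBV24 was in the set of segments used to call chains is not given in the sources used here. The count of 0 therefore sets no limit on how often TRBV24 was rearranged. TRBV29 was classed the other way round, as a gene by GENCODE and a pseudogene by RefSeq, and it had an open V exon and productive chains in every library. In all 160 member chains the V region from the first to the third framework matched the C57BL/6 reference base for base (11 of 11 for TRBV23, 60 of 60 for TRBV26, 86 of 86 for TRBV29 and 3 of 3 for TRBV30). Each V exon is followed directly by a recombination signal heptamer, which read CACAGCG after TRBV23 and TRBV24, CACAGCA after TRBV26, CACAGCT after TRBV29 and CACAGTG after TRBV30. Of the 22 V genes that GENCODE lists as functional at the locus, 20 had a heptamer starting with CACAG and 8 had CACAGTG. A match of letters here is a description of the sequence only.

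The member segments made up a smaller share of cells in the aged than in the young libraries, while the intervals of the aged minus young difference in their share of clonotypes included 0. Together they were in 21 of 252 cells (8.33%, interval 5.23 to 12.5) for YTBI_Isotype, 47 of 562 (8.36%, 6.21 to 11.0) for YTBI_aCD49d, 46 of 1004 (4.58%, 3.37 to 6.06) for ATBI_Isotype and 45 of 1102 (4.08%, 2.99 to 5.43) for ATBI_aCD49d. Both young libraries thus lay above both aged libraries. Aged minus young, the difference was -3.75 percentage points (-8.05 to -0.315) under isotype and -4.28 points (-7.10 to -1.74) under aCD49d. The first of these is near 0 at its upper limit, and with only the cells that had exactly 1 alpha and 1 beta chain it was -3.92 points (-9.24 to 0.252).

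By clonotypes the same segments held 17 of 220 (7.73%, 4.57 to 12.1) for YTBI_Isotype, 47 of 453 (10.4%, 7.72 to 13.6) for YTBI_aCD49d, 36 of 449 (8.02%, 5.68 to 10.9) for ATBI_Isotype and 38 of 527 (7.21%, 5.15 to 9.76) for ATBI_aCD49d. These intervals overlap throughout. The aged minus young difference was 0.291 points (-4.65 to 4.59) under isotype and -3.16 points (-6.95 to 0.516) under aCD49d. The share of cells divided by the share of clonotypes was 1.08 for YTBI_Isotype, 0.806 for YTBI_aCD49d, 0.571 for ATBI_Isotype and 0.566 for ATBI_aCD49d. A ratio below 1 was common among segments with at least 5 clonotypes, with 7 of 17 in YTBI_Isotype and 15 of 20 in YTBI_aCD49d. In the aged libraries 17 of 20 were below 1 in ATBI_Isotype, where TRBV29 ranked 3 and TRBV26 ranked 9 from the lowest, and 14 of 20 were below 1 in ATBI_aCD49d, where TRBV26 ranked 5 and TRBV29 ranked 6.

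**Figure D1:**
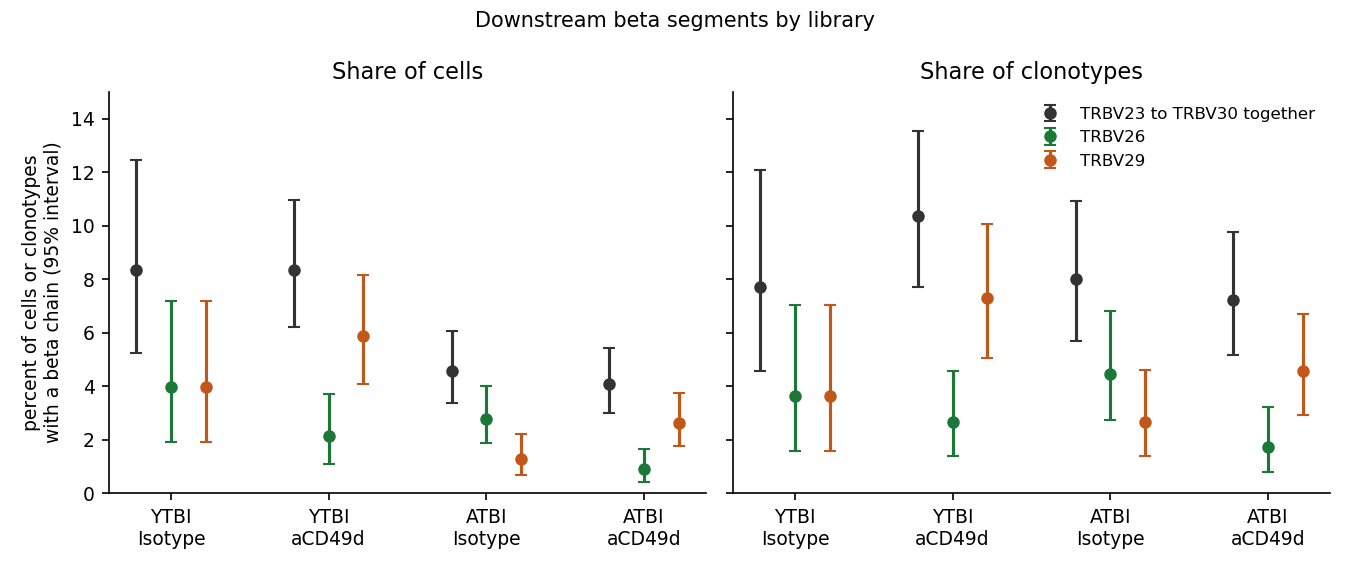
Share of cells (left) and of clonotypes (right) with a beta chain that carried any of TRBV23 to TRBV30, TRBV26 alone or TRBV29 alone, in percent, for the 4 libraries. Points are the values and bars the exact 95% intervals. In cells the segments together fall from 8.33% and 8.36% in the young libraries to 4.58% and 4.08% in the aged ones, while in clonotypes all 4 values lie between 7.21% and 10.4%.

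TRBV26 was found in every library, with a modest share of the young ones. It was in 10 of 252 cells (3.97%, 1.92 to 7.18) and 8 of 220 clonotypes (3.64%, 1.58 to 7.04) of YTBI_Isotype, and in 12 of 562 cells (2.14%, 1.11 to 3.70) and 12 of 453 clonotypes (2.65%, 1.38 to 4.58) of YTBI_aCD49d. The young libraries did not differ beyond counting error, with isotype minus aCD49d at 1.83 points of cells (-0.745 to 5.20) and 0.987 points of clonotypes (-1.83 to 4.62). In the aged libraries the intervals of this difference left out 0. ATBI_Isotype had 28 of 1004 cells (2.79%, 1.86 to 4.01) and 20 of 449 clonotypes (4.45%, 2.74 to 6.80), against 10 of 1102 cells (0.907%, 0.436 to 1.66) and 9 of 527 clonotypes (1.71%, 0.784 to 3.22) in ATBI_aCD49d. The difference was 1.88 points of cells (0.685 to 3.19) and 2.75 points of clonotypes (0.464 to 5.26). The latter was the only 1 of 20 intervals for clonotypes that left out 0, with no adjustment for their number. Among cells with exactly 1 alpha and 1 beta chain the clonotype difference was 2.36 points (-0.0329 to 5.22). Whether the gap between isotype and aCD49d itself differed with age was not tested, and it was in the same direction at both ages. Aged minus young, TRBV26 cells differed by -1.18 points (-4.52 to 1.20) under isotype and -1.23 points (-2.86 to 0.0470) under aCD49d, the latter -1.92 points (-4.01 to -0.406) among cells with exactly 1 alpha and 1 beta chain. TRBV26 clonotypes differed by 0.818 points (-2.99 to 3.93) under isotype and -0.941 points (-3.08 to 1.03) under aCD49d.

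TRBV29, the segment shared with iNKT cells, had a lower share of cells under isotype than under aCD49d at both ages. The interval of the difference included 0 in young brain and narrowly left it out in aged brain. TRBV29 was in 10 of 252 cells (3.97%, 1.92 to 7.18) of YTBI_Isotype, 33 of 562 (5.87%, 4.08 to 8.15) of YTBI_aCD49d, 13 of 1004 (1.29%, 0.691 to 2.20) of ATBI_Isotype and 29 of 1102 (2.63%, 1.77 to 3.76) of ATBI_aCD49d. Of the 29 cells of ATBI_aCD49d, 5 belonged to 1 clone. Whether the gap between isotype and aCD49d differed with age was not tested. Isotype minus aCD49d was -1.90 points (-4.97 to 1.77) in young and -1.34 points (-2.61 to -0.0837) in aged brain. Among cells with exactly 1 alpha and 1 beta chain these were 0.434 points (-3.23 to 5.04) and -0.895 points (-2.41 to 0.704), so the sign in young brain turned and both included 0. In clonotypes TRBV29 made up 8 of 220 (3.64%), 33 of 453 (7.28%), 12 of 449 (2.67%) and 24 of 527 (4.55%) in the same order, and the isotype minus aCD49d differences of -3.65 points (-7.12 to 0.413) and -1.88 points (-4.38 to 0.650) both included 0. Aged minus young, its share of cells was lower by intervals that left out 0, at -2.67 points (-5.94 to -0.432) under isotype and -3.24 points (-5.67 to -1.12) under aCD49d, the latter -2.05 points (-4.74 to 0.174) among cells with exactly 1 alpha and 1 beta chain. In clonotypes the corresponding values were -0.964 points (-4.60 to 1.87) and -2.73 points (-5.96 to 0.356).

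TRBV23 and TRBV30 were rare. TRBV23 had 1 cell for YTBI_Isotype, 0 for YTBI_aCD49d, 5 for ATBI_Isotype and 5 for ATBI_aCD49d, in 1, 0, 4 and 4 clonotypes. It was the segment with the fewest clonotypes among those seen in YTBI_Isotype and in ATBI_Isotype. TRBV30 had 2 cells in YTBI_aCD49d and 1 in ATBI_aCD49d, each a clonotype of its own, and 0 in both isotype libraries. At these counts no difference between libraries was detectable for either. As a scale, the segment call with most clonotypes in every library was the joint call of TRBV12-2 and TRBV13-2, at 10.9% of clonotypes or more, and no joint call named a member. TRBV29 ranked 11, 4, 16 and 9 and TRBV26 ranked 11, 18, 11 and 20 by number of clonotypes in YTBI_Isotype, YTBI_aCD49d, ATBI_Isotype and ATBI_aCD49d. Across the 5 rows of segments, 4 comparisons and both units, 7 of 40 intervals left out 0, 6 of them for cells and 1 for clonotypes, with no adjustment for their number.

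The members' clones stayed small in every library. Of the 138 clonotypes, 122 were single cells (88.4%), 13 had 2 cells and 3 had 3 or more, and of 1515 clonotypes of the other segments 1307 were single cells (86.3%). The largest member clone had 3 cells for YTBI_Isotype, 1 for YTBI_aCD49d, 4 for ATBI_Isotype and 5 for ATBI_aCD49d, against 7, 33, 109 and 101 cells for the largest clone of the other segments. No member clonotype reached 10 cells, as was the case for most segments: 15 of 21 in ATBI_Isotype and 15 of 22 in ATBI_aCD49d had no such clonotype. The other segments had 22 such clonotypes, 2 in YTBI_aCD49d, 9 in ATBI_Isotype and 11 in ATBI_aCD49d, which held 7.75%, 44.7% and 40.9% of those libraries' cells with another segment. The absence of a large member clone was within counting error: 0 of 74 member clonotypes of the aged libraries against 20 of 905 others (2.21%) gave a difference of -2.21 points (-3.39 to 2.73).

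When the clonotypes of 10 or more cells were left out, an alternative chosen after seeing the data, the members' share of cells was 46 of 575 (8%) in ATBI_Isotype and 6.73% in ATBI_aCD49d, and the aged minus young difference became -0.333 points (-4.95 to 3.67) under isotype and -2.28 points (-5.58 to 0.895) under aCD49d. Both intervals then included 0. No member clonotype was that large, so this step took cells of other segments alone, 40 in YTBI_aCD49d, 429 in ATBI_Isotype and 433 in ATBI_aCD49d, and could only raise the members' share there. TRBV29's aged minus young differences likewise became -1.71 points (-5.08 to 0.877) and -1.99 points (-4.81 to 0.674). The excess of TRBV26 cells in ATBI_Isotype over ATBI_aCD49d was 3.37 points (1.34 to 5.61) on that count. For TRBV29 the interval of isotype minus aCD49d in aged brain then included 0.

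**Figure D2:**
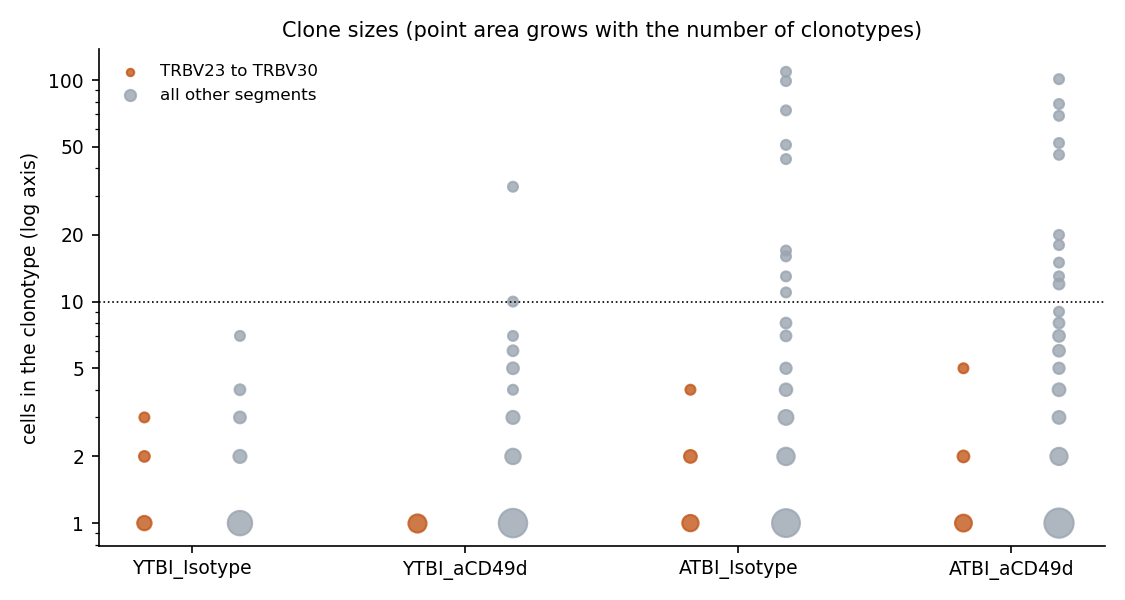
Cells per clonotype (log axis) in each library for TRBV23 to TRBV30 and for all other beta segments; each point is a clone size seen in that library, its area grows with the number of clonotypes of that size, and the dotted line marks 10 cells. Member clones reach 3, 1, 4 and 5 cells, and every clonotype on or above the line belongs to another segment.

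Cells whose clonotype held at least 2 cells are called clonal here. Clonal cells were 7 of 21 member cells (33.3%, 14.6 to 57.0) for YTBI_Isotype, 0 of 47 (0%, 0 to 7.55) for YTBI_aCD49d, 18 of 46 (39.1%, 25.1 to 54.6) for ATBI_Isotype and 12 of 45 (26.7%, 14.6 to 41.9) for ATBI_aCD49d. For the other segments the shares were 18.6%, 28.7%, 65.0% and 60.8%. The members were below the others in both aCD49d libraries and in ATBI_Isotype: members minus others was -28.7 points (-32.8 to -20.2) with young aCD49d mice, -25.8 points (-40.2 to -10.03) with aged isotype mice and -34.1 points (-46.6 to -18.6) with aged aCD49d mice. In YTBI_Isotype it was 14.7 points, with an interval that included 0 (-4.85 to 38.8). Leaving out the clonotypes of 10 or more cells, all of other segments, could only lower the others' clonal share. This step therefore cannot show what the gap rested on. Without them the others were clonal in 194 of 530 cells (36.6%) in ATBI_Isotype and 211 of 626 (33.7%) in ATBI_aCD49d. Members minus others was then 2.53 points (-12.1 to 18.6) and -7.04 points (-19.7 to 8.68). In YTBI_aCD49d it was -22.7 points (-26.7 to -14.3) on that count. Counted by clonotypes the aged libraries showed no such gap: 8 of 36 member clonotypes had 2 or more cells in ATBI_Isotype (22.2%, against 18.8% of others) and 5 of 38 in ATBI_aCD49d (13.2%, against 15.5%), with differences of 3.38 points (-9.40 to 20.7) and -2.32 points (-11.7 to 12.9). In YTBI_aCD49d, 0 of 47 member clonotypes had 2 or more cells against 39 of 407 others, a difference of -9.58 points (-12.9 to -1.57). Because more cells show more repeats, the exact expectation after thinning every library to 252 cells was also computed: it was 33.3%, 0%, 12.7% and 10.2% for the members and 18.6%, 22.1%, 53.7% and 50.9% for the others. YTBI_Isotype was above ATBI_aCD49d on both counts, and its order against ATBI_Isotype turned at equal cell number.

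For each member segment and library, the clone with the most cells is shown where it held at least 2 cells and was not tied. Each is given by the nucleotides of its beta CDR3, 5′ to 3′ from the cysteine codon. The bases that matched neither the germline V end nor the germline J start are in capitals.
TRBV29 YTBI_Isotype 3 cells: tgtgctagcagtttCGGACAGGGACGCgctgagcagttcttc
TRBV29 ATBI_aCD49d 5 cells: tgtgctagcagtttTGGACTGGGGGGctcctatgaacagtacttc
TRBV29 ATBI_Isotype 2 cells: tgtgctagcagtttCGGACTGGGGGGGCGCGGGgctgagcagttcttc
TRBV26 ATBI_Isotype 4 cells: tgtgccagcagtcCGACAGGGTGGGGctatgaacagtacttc
TRBV26 ATBI_aCD49d 2 cells: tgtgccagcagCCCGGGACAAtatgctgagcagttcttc
TRBV23 ATBI_Isotype 2 cells: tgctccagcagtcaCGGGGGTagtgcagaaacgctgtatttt
TRBV23 ATBI_aCD49d 2 cells: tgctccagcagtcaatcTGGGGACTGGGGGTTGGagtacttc

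The TRBV29 clone of 3 cells in YTBI_Isotype was the only member clone above 1% of its library (1.15%, 0.237 to 3.31). It used TRBJ2-1, had a CDR3 of 14 residues and carried TRAV9-2/TRAJ22 in all 3 cells. The TRBV29 clone of 5 cells in ATBI_aCD49d (0.445%, 0.145 to 1.04) used TRBJ2-7 and had TRAV9-4/TRAJ45 in the 3 cells with an alpha chain, at 5, 7, 8, 11 and 14 beta UMIs per cell. The TRBV26 clone of 4 cells in ATBI_Isotype (0.391%, 0.107 to 0.997) used TRBJ2-7 with TRAV6-4/TRAJ43 in all 4 cells, at 1, 3, 4 and 4 UMIs. Both TRBV23 clones were pairs of cells with an alpha chain in each cell, TRAV12-2/TRAJ26 with TRBJ2-3 in ATBI_Isotype and TRAV7-5/TRAJ57 with TRBJ2-7 in ATBI_aCD49d. In YTBI_Isotype TRBV26 had a pair of clones of 2 cells each, with TRBJ1-4 and TRAV16/TRAJ47 and with TRBJ2-5 and TRAV13-1/TRAJ42. The remaining member clones, each of 2 cells, all came from aged libraries and carried TRBV26 or TRBV29.

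One pair of TRBV26 clonotypes in ATBI_Isotype, singled out after its values were seen, encoded the same CDR3 of 11 residues with different bases. It was the only such pair among the members. The capitals mark the differing base, which was C12T counted from the first base of the cysteine codon.
TRBV26 2 cells: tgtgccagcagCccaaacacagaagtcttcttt
TRBV26 1 cell: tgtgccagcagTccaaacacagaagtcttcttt
Both used TRBJ1-1 and both were paired with the alpha segment TRAV1, joined to TRAJ9 in the larger clonotype and to TRAJ34 in the single cell, so the pair differed at both loci.

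J partners were counted over distinct rearrangements (a V, a J and a CDR3 nucleotide sequence of 1 library, each counted once), of which the members had 139 and the other segments 1539. TRBJ2 segments took 68 of 139 member rearrangements (48.9%, 40.4 to 57.5) against 997 of 1539 others (64.8%, 62.3 to 67.2), a difference of -15.9 points (-24.8 to -6.91). With each library left out in turn it stayed between -18.1 and -14.0 points, with intervals that left out 0. Within libraries the difference was 0.635 points (-26.6 to 20.9) for YTBI_Isotype, -20.9 points (-36.4 to -5.20) for YTBI_aCD49d, -18.0 points (-34.8 to 0.283) for ATBI_Isotype and -16.6 points (-33.2 to 0.618) for ATBI_aCD49d. YTBI_Isotype, with 17 member rearrangements, thus did not show it.

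The lean towards TRBJ1 was larger in TRBV26. It had TRBJ2 in 19 of 49 rearrangements (38.8%, 25.2 to 53.8), a difference of -26.01 points from the other segments (-39.8 to -10.8), and was below them in each library, at 5 of 8 for YTBI_Isotype, 4 of 12 for YTBI_aCD49d, 8 of 20 for ATBI_Isotype and 2 of 9 for ATBI_aCD49d. The interval included 0 in YTBI_Isotype (-7.45 points, -45.9 to 22.3) and in ATBI_Isotype (-19.6 points, -41.0 to 4.81). It left out 0 in YTBI_aCD49d (-36.5 points, -60.3 to -4.39) and in ATBI_aCD49d (-40.6 points, -60.4 to -2.51). The most used J of TRBV26 was TRBJ1-2, in 10 of 49 (20.4%, against 5.78% of others), followed by TRBJ1-1 and TRBJ1-3 with 8 each (16.3%, against 9.81% and 5.003%). The intervals of the difference left out 0 for TRBJ1-2 (14.6 points, 4.38 to 28.6) and TRBJ1-3 (11.3 points, 2.24 to 24.7) of 12 J segments compared. For TRBJ1-2 the difference within a library left out 0 in YTBI_aCD49d (5 of 12, 36.03 points, 9.39 to 66.8) and in ATBI_aCD49d (3 of 9, 27.9 points, 1.94 to 64.7), and the pooled one included 0 without YTBI_aCD49d (7.68 points, -1.43 to 23.0). In ATBI_Isotype, the library with the most TRBV26 rearrangements, it had the opposite sign (1 of 20, -1.89 points, -7.54 to 18.1), and without that library the pooled difference was 25.7 points (9.85 to 45.5). For TRBJ1-3 it left out 0 in ATBI_Isotype alone (19.8 points, 3.23 to 44.0), and without ATBI_Isotype, which gave 5 of the 8 with TRBJ1-3, the pooled one was 5.43 points (-2.86 to 22.5).

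TRBV29 had TRBJ2 in 41 of 78 rearrangements (52.6%, 40.9 to 64.0), a difference of -12.2 points from the others (-24.1 to -0.531). Without YTBI_aCD49d, ATBI_Isotype or ATBI_aCD49d this difference was -11.8, -10.7 or -12.9 points with intervals that included 0. Its most used J segments were TRBJ2-7 with 16 (20.5%, against 19.6% of others) and TRBJ1-1 with 15 (19.2%, against 9.81%). TRBJ1-1 was above the others by 9.42 points (1.21 to 20.01), of which 8 rearrangements came from ATBI_aCD49d, and without that library by 5.43 points (-2.50 to 17.7). Among the 20 V segment calls with at least 20 rearrangements, the 4 libraries pooled, TRBV26 had the lowest share of TRBJ2 and TRBV29 the next. TRBV13-2 (53.5%) and TRBV3 (53.6%) followed, and TRBV16 had the highest (73.8%). Libraries differed in this share, from 59.6% of the other segments in ATBI_Isotype to 70.0% in YTBI_Isotype, and ranks within libraries are not given. TRBV29's interval overlapped that of every other segment but TRBV16 (lower limit 64.2). TRBV26's interval overlapped those of TRBV29, TRBV13-2, TRBV3, TRBV20, TRBV1, TRBV2, TRBV13-3, TRBV12-1, TRBV31 and TRBV15. Its upper limit of 53.8 lay below the lower limits of the remaining segments. TRBV23 had TRBJ2 in 7 of 9 rearrangements and TRBV30 in 1 of 3, with TRBJ1-2 in the other two.

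**Figure D3:**
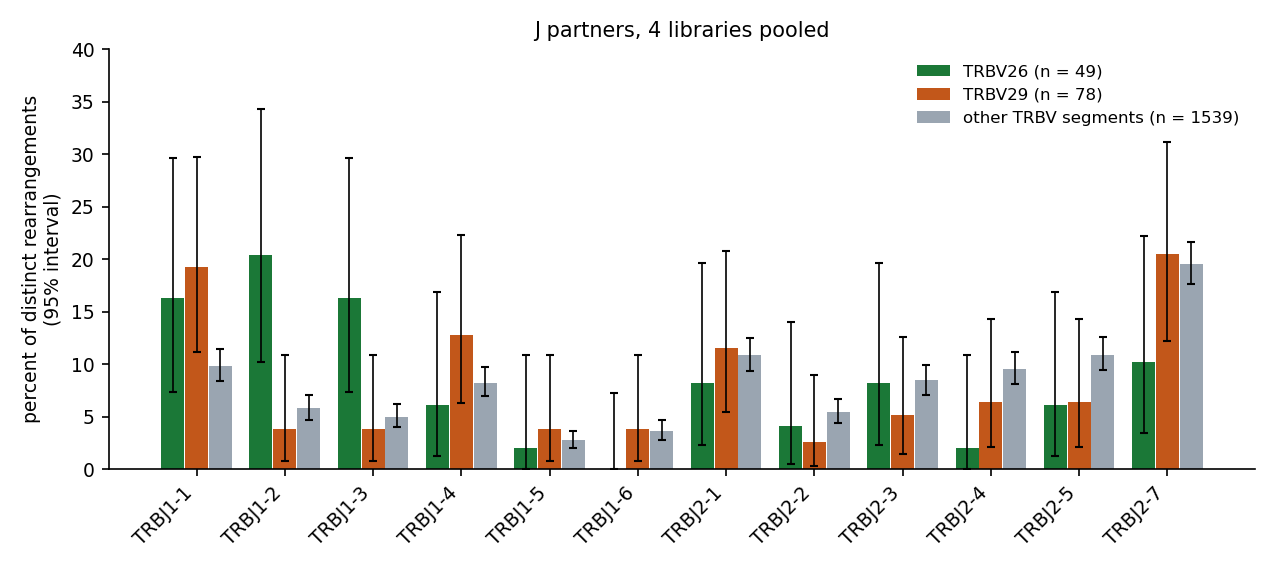
Percent of distinct rearrangements that used each TRBJ segment, the 4 libraries pooled, for TRBV26 (n = 49), TRBV29 (n = 78) and all segments other than the 5 members (n = 1539). Bars are the values and lines the exact 95% intervals; TRBV26 stands at 20.4% for TRBJ1-2 against 5.78% of the other segments.

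**Figure D4:**
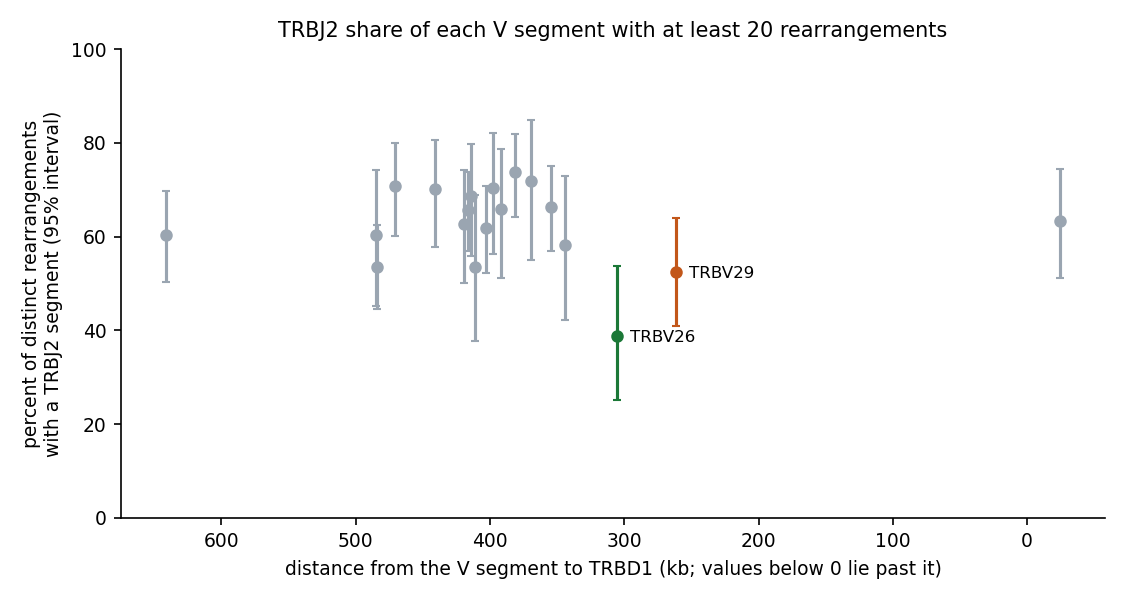
Percent of distinct rearrangements joined to a TRBJ2 segment, the 4 libraries pooled, for each V segment with at least 20 rearrangements and a position of its own. Values are set against the distance to TRBD1 in kb, with exact 95% intervals. TRBV26 at 305.2 kb has the lowest value (38.8%) and TRBV29 at 261.3 kb the next (52.6%); TRBV31, which lies past the D and J clusters, is at 63.4%.

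The C gene matched the J cluster in all 139 member rearrangements, with TRBC1 in 71 and TRBC2 in 68. A D segment was called in few: TRBD1 in 24 rearrangements, of which 15 joined a TRBJ1 and 9 a TRBJ2 segment, and TRBD2 in 3, all with TRBJ2. TRBD1 was in 17.3% of member rearrangements against 16.5% of others, and TRBD2 in 2.16% (0.447 to 6.18) against 8.64% (7.29 to 10.2). The remaining 112 (80.6%, against 74.9% of others) had no D call. TRBD2 with TRBJ1, which the order of the locus does not allow by deletion, was called in 2 of the other rearrangements and in none of the members', which had only 3 TRBD2 calls.

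CDR3 length was close to that of the other segments, with fewer long loops among the members. The median was 14 residues for the members and for the others, and the mean was 13.6 ± 1.31 (SD, n = 139) against 14.04 ± 1.42 (n = 1539). TRBV26 averaged 13.4 ± 1.19 (n = 49), and by library 14, 13.4, 13.1 and 13.7 in YTBI_Isotype, YTBI_aCD49d, ATBI_Isotype and ATBI_aCD49d, where the others averaged 14.02, 14.03, 14.03 and 14.05. TRBV29 averaged 13.8 ± 1.42 (n = 78) and TRBV23 13.7 ± 1.12 (n = 9), and the 3 TRBV30 loops had 13, 13 and 14 residues. A CDR3 of 15 or more residues was found in 34 of 139 member rearrangements (24.5%, 17.6 to 32.5) and 587 of 1539 others (38.1%), a difference of -13.7 points (-21.0 to -5.31). With each library left out in turn it was between -15.1 and -12.2 points, with intervals that left out 0. Within libraries it was -8.62 points (-28.9 to 18.7) for YTBI_Isotype, -15.6 points (-27.7 to -0.190) for YTBI_aCD49d, -17.8 points (-30.1 to -0.632) for ATBI_Isotype and -10.02 points (-24.0 to 7.19) for ATBI_aCD49d. The members were thus below the others in each library, by intervals that left out 0 in YTBI_aCD49d and ATBI_Isotype. Loops of that length were found in 8 of 49 TRBV26 rearrangements (16.3%), a difference from the others of -21.8 points (-31.2 to -8.26). This one depended on ATBI_Isotype, where 1 of 20 was that long: without that library the difference was -14.3 points (-28.5 to 5.29). TRBV29 reached that length in 24 of 78 (30.8%, difference -7.37 points, -17.6 to 4.36).

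**Figure D5:**
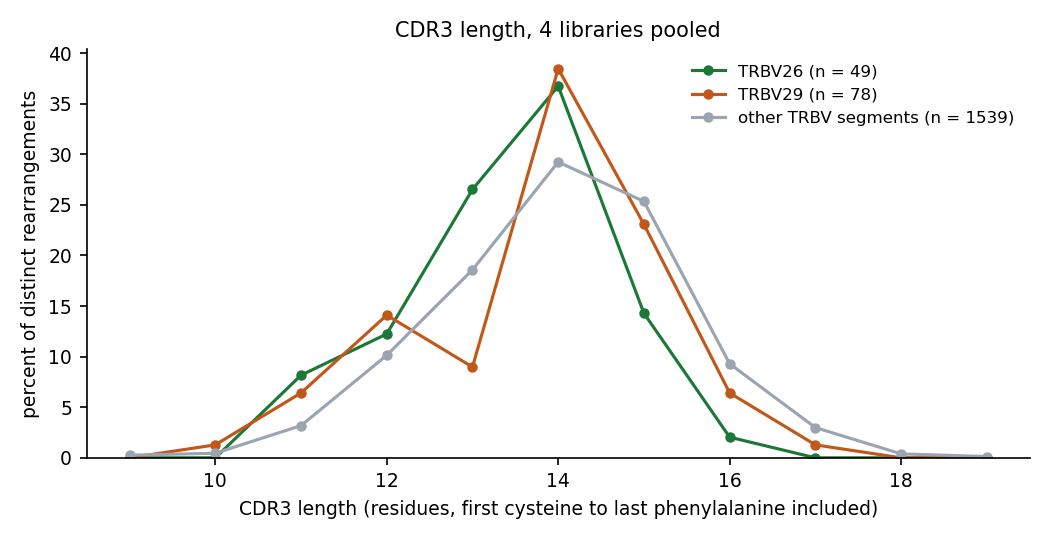
Percent of distinct rearrangements at each CDR3 length in residues, the 4 libraries pooled, for TRBV26, TRBV29 and all segments other than the 5 members. All 3 curves peak at 14 residues, and the TRBV26 curve lies below the others from 15 to 17 residues, with 16.3% of its rearrangements at 15 or more residues against 38.1% of the other segments.

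At the joint, the TRBV26 and TRBV29 chains kept a median of 13 of the 17 germline V bases shown above, TRBV23 kept 14 of 17 and TRBV30 13 of 14. The stretch that matched neither V nor J was 8.59 ± 3.70 bases in TRBV26 (SD, n = 49), 10.2 ± 3.69 in TRBV29 (n = 78) and 10.1 ± 3.93 in the other segments whose germline end could be read (n = 1259). TRBV26 thus had somewhat shorter joints than TRBV29 on average, a difference that was not tested. At the extremes, 1 TRBV26 rearrangement had 0 such bases, and the longest stretch among the members had 19, in TRBV29, against 27 among the other segments.

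An alpha chain was recovered in 126 of 159 member cells (79.2%, 72.1 to 85.3), and in 2110 of 2765 cells with another segment (76.3%). Counted once per beta rearrangement, 112 member rearrangements had 127 pairings with 17 TRAV families and 35 TRAJ segments. The families met most often were TRAV12 in 16, TRAV6 in 15 and TRAV7 in 14, which were also the 3 most frequent beside the other segments. TRBV26 was joined most often by TRAV7 (7 of 37) and TRAV6 (6 of 37), and TRBV23 by TRAV12, TRAV13 and TRAV9, with 2 each of 8. TRBV30 was found with TRAV12, TRAV14 and TRAV6, once each.

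TRBV29 was met most often by TRAV11, and each of those pairs was the iNKT alpha chain TRAV11/TRAJ18. This chain was found with 10 of 64 TRBV29 rearrangements with an alpha chain (15.6%, 7.76 to 26.9), against 103 of 1253 for the segments outside the 5 members (8.22%, 6.76 to 9.88), a difference of 7.40 points that included 0 (-0.638 to 18.7). It was found with 0 of 37 TRBV26 rearrangements (0%, 0 to 9.49). The TRBV26 difference from the same other segments was -8.22 points and included 0 (-9.88 to 1.38). None of the 8 TRBV23 or the 3 TRBV30 rearrangements had this chain. By library the TRBV29 counts were 1 of 7 for YTBI_Isotype, 5 of 23 for YTBI_aCD49d, 0 of 10 for ATBI_Isotype and 4 of 24 for ATBI_aCD49d. TRBV29 supplied 10 of the 113 TRAV11/TRAJ18 rearrangements of the series, after TRBV12-2+TRBV13-2 with 57, TRBV13-1 with 20 and TRBV1 with 11.

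The alpha CDR3 of these 10 cells had 15 residues and 1 amino-acid sequence, written with 4 nucleotide sequences that differed at position 12 alone. They are shown because the same stretch of protein was written with a different last base of 1 codon. The differing base is in capitals.
3 TRBV29 rearrangements: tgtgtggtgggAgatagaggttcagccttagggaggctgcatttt
2 TRBV29 rearrangements: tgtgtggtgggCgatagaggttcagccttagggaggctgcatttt
3 TRBV29 rearrangements: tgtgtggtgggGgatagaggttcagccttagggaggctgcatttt
2 TRBV29 rearrangements: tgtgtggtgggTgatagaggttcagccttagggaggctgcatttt

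The same amino acids were found beside 96 of the 103 TRAV11/TRAJ18 rearrangements of other segments, in which the 4 forms above occurred 30, 35, 28 and 3 times. All 10 TRBV29 partners were single cells with different beta CDR3s, of 13 to 17 residues, 5 with TRBJ1-1 and 5 with a TRBJ2 segment. The 54 TRBV29 rearrangements with another alpha chain had 9 with TRBJ1-1, 27 with TRBJ2 and 5 in clones of 2 or more cells. The deposited clonotype tables mark every one of the 77 TRBV29 clonotypes with iNKT evidence, in 67 of them from the beta gene alone, so that mark is not a count of iNKT cells. No member clonotype carried evidence of a mucosal-associated invariant T cell.

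The chains themselves were recovered with slightly fewer molecules than those of other segments in each library. Member chains had a median of 10, 8, 5 and 9 UMIs in YTBI_Isotype, YTBI_aCD49d, ATBI_Isotype and ATBI_aCD49d, against 11, 9, 7 and 10 for the others, and 2 member chains rested on 1 UMI, 1 of them TRBV30 in YTBI_aCD49d and 1 TRBV26 in ATBI_Isotype. Single segments lay on both sides of the others. In YTBI_Isotype the median was 13 for TRBV29 and 7 for TRBV26, and in ATBI_aCD49d it was 8 for TRBV29 and 11 for TRBV26. TRBV26 in ATBI_Isotype, the group with the most TRBV26 cells, had a median of 5 UMIs (1 to 29). Of the 159 member cells, 5 had more than 1 beta chain, 15 had 2 alpha chains and none had more. Such cells can be doublets and were kept in the counts above.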

How the data were processed

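Cells of 4 libraries were prepared with the 10x 5' v2 immune profiling kit. The authors aligned the receptor reads to mm10 and assembled chains per cell barcode with Cell Ranger (7.2.0 in the submitters' processing notes, which name mm9 as well); the V(D)J reference is not given in the sources used here. The deposited contig tables list productive, full-length chains with their count of UMIs, and the deposited clonotype tables give each clonotype's count of cells and its fraction of the library. The authors later kept only barcodes of T cells from the transcriptomes, a step not repeated here, and the transcriptomes were not analysed here.

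Chains were grouped by V gene, and cells, clonotypes and distinct rearrangements were counted per library with Python 3.11.15, pandas 2.3.3 and scipy 1.17.1. Intervals are at 95%. No doublet caller was run and the authors' handling of doublets is not given in the sources used here; the 3 to 22 cells a library with more than 1 beta chain were kept, and leaving them out was an alternative. Germline sequence and positions came from the GRCm38 genome of RefSeq with the GENCODE vM21 annotation, and CDR3s were compared with the germline V end and J start base by base from each side (TRBV10 and joint calls left out). Named clones are the largest of each member segment in each library with at least 2 cells and any at 1% or more of a library. The members and lists were chosen with earlier results of these data known. Alternatives were stricter chain filters, at least 2 UMIs, leaving out the largest clone, clonotypes defined by the beta chain, thinning, weighting by cells and, added after seeing the data, leaving out clonotypes of 10 or more cells or 1 library. Intervals, thinning and junction splitting were tested on simulated data. The counts simulated for the intervals were independent, so clones were not covered. The junction check asked only that the planted V and J bases were matched. Added bases that match the germline by accident were not checked.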

Additional observations from a re-analysis of the deposited data

Results flagged for a closer look

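With 1 library per group, effects of opposite sign were noted without a test. For the member segments together, isotype minus aCD49d was 0.498 points of cells in aged and -0.0297 points in young brain, which differ by 0.528 points, and 0.807 against -2.65 points of clonotypes, which differ by 3.46 points. Aged minus young, their share of clonotypes differed by 0.291 points under isotype and -3.16 points under aCD49d, which again differ by 3.46 points. For TRBV26 the aged minus young difference in clonotypes was 0.818 points under isotype and -0.941 points under aCD49d, which differ by 1.76 points. Each of these 4 pairs consists of differences whose counting intervals included 0, and the difference within each pair was not tested.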

How the results depend on the processing

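No paired analysis was run, and each group comprised only 1 library. Of the main values recomputed under the alternatives, 195 stayed as they were within their interval, 5 moved, 11 differences lost and 2 gained an interval that left out 0, and 1 difference whose interval left out 0 turned its sign; where no construction explains a change the cause was not tested. Some of the 195 could not change: 4 that counted joint calls naming a member, of which there were none, and 2 thinned values of the young libraries. YTBI_Isotype sets the thinned cell number, and YTBI_aCD49d had 0 clonal member cells. For median CDR3 lengths the interval was the median plus or minus the SD. Among cells of exactly 1 alpha and 1 beta chain, intervals took in 0 for the members' aged minus young difference in cells under isotype (-3.92 points), for TRBV29 in cells aged minus young under aCD49d (-2.05 points) and isotype minus aCD49d in aged brain (-0.895 points), and for TRBV26 clonotypes isotype minus aCD49d in aged brain (2.36 points), while TRBV26 cells aged minus young under aCD49d left out 0 (-1.92 points, and -1.31 points without cells of more than 1 beta or 2 alpha chains). Without the largest clone of each library the members' first difference was -3.45 points, its interval again including 0. Leaving out clonotypes of 10 or more cells, which shrinks the denominators of the aged libraries, gave member shares of 8% in ATBI_Isotype and 6.73% in ATBI_aCD49d. It gave aged minus young differences of -0.333 and -2.28 points for the members and -1.71 and -1.99 points for TRBV29, each including 0, isotype minus aCD49d in aged brain of -2.07 points for TRBV29, including 0, and of 3.37 points for TRBV26. On that count members minus others in the clonal share was 2.53 points in ATBI_Isotype, where the sign turned, and -7.04 points in ATBI_aCD49d, both including 0. Leaving those clonotypes out could only lower the others' clonal share. Thinned to the cell number of YTBI_Isotype, the members' clonal share was expected at 12.7% in ATBI_Isotype and 10.2% in ATBI_aCD49d. At 252 to 1102 cells a library, differences for TRBV23 and TRBV30 were not detectable.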
